A study of Mus musculus with 4 samples.

Results

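The genes described here are the core genes of hepatic de novo lipogenesis, the making of fatty acids from carbon that enters the liver mostly as sugar. The 10 genes were taken by symbol from the gene counts, namely Acly, Acaca, Acacb, Fasn, Elovl6, Scd1, Thrsp, Pnpla3, Srebf1 and Mlxipl. They are 10 of the 48709 gene identifiers counted, and all 10 had enough reads to be tested. They were chosen for their function in this pathway, with earlier results of these data known.

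Acly makes cytosolic acetyl-CoA from citrate, and the acetyl-CoA carboxylases Acaca and Acacb turn it into malonyl-CoA. Fasn builds palmitate from both with reducing power from NADPH, Elovl6 lengthens the product and Scd1 puts in a double bond. Transcription of these genes in liver is driven by SREBP-1c, encoded by Srebf1, after feeding and insulin, and by ChREBP, encoded by Mlxipl, when glucose metabolites accumulate. Thrsp is a small nuclear and cytosolic protein that follows lipogenesis, and Pnpla3 is a lipid droplet protein that is induced by the same factors.

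Liver RNA of untreated C57BL/6 mice was sequenced as poly(A) libraries, 2 labelled WT and 2 labelled DDI2-KO. DDI2 is an aspartic protease that is needed to activate the transcription factor NRF1. According to the methods of the study, the DDI2-KO animals were DDI2 flox/flox Alb Cre+ and the controls were littermates. The supplement of the study describes matings of Ddi2 flox/flox mice with and without Alb Cre, which give flox/flox littermates without Cre. The genotype of the WT mice sequenced here is not itself stated in the sources used here. The deletion is under the control of albumin, a hepatocyte gene, and the study calls it specific to the liver. Which cells of the liver kept Ddi2 was not measured here. The age and sex of each of the 4 animals are not given in the labels.

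Reads counted on genes numbered 31532247 to 34109018 in the WT libraries and 22501208 to 25582344 in the DDI2-KO libraries. In CPM, counts scaled to the size of the library, a gene with 3 reads stood at 0.0880 to 0.133, which was taken as the floor. This floor and the summed marker levels below use library totals alone, and the CPM of single genes are scaled with TMM factors as well. Ddi2 itself had 4749 and 3812 reads in WT and 4068 and 3777 reads in DDI2-KO. Scaled for library size it was somewhat higher in DDI2-KO, with a log2 fold change of 0.28 ± 0.17 (SE, edgeR adjusted p = 0.349). Counts over the whole gene cannot check a deletion of one part of it, so the groups below follow the labels. Hepatocyte markers were abundant in every library, with albumin (Alb) at 122390 to 154589 CPM and a summed level of 163026 to 189520 CPM over 10 genes, and 0 of the 10 differed at an adjusted p under 0.05. Of the adipocyte markers, Plin1, Lep, Retn and Cfd had 0 reads in all 4 libraries and Adipoq had 1 or 2. The nuclear RNAs Malat1 and Neat1 were lower in DDI2-KO, with log2 fold changes of -1.29 and -1.78 (edgeR, adjusted p = 0.0224 and 0.0438), and mitochondrial genes took 9.91% to 10.5% of counted reads in WT against 5.27% to 6.34% in DDI2-KO.

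Sequence upstream of the start is shown for members that bear on the comparison: the synthase Fasn, whose level was nearly equal in both groups, the elongase Elovl6, which came nearest to the threshold, the droplet gene Pnpla3, and the regulators Srebf1 and Mlxipl. RefSeq (GRCm38.p6) gives 12 such windows for 9 of the 10 genes, and none for Scd1 in the table used. Each line runs 5' to 3' on the strand of the gene. It ends at the last base before the RefSeq start, or before a GENCODE exon that begins earlier, as for Elovl6. Capitals mark matches on either strand to the box CCAAT, to the GC box GGGCGG, to the palindromic E-box CACGTG, to the sterol regulatory element TCACNCCAC or to its core TCACCC. These motifs were picked with the sequences in view.
Fasn, chr11:120824548-120824797, minus strand: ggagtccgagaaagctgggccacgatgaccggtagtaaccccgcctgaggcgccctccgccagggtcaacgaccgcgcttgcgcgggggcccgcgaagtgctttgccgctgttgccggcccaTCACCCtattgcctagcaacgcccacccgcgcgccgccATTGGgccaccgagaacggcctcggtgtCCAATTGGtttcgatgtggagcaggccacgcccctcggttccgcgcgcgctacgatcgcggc
Srebf1, 1 of 3 annotated starts, chr11:60210472-60210721, minus strand: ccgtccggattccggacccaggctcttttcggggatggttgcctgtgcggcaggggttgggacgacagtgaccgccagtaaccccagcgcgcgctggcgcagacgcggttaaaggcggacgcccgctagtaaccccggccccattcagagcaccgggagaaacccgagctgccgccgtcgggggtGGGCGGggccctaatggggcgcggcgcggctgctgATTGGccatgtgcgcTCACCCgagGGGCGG
Mlxipl, upstream start, chr5:135089640-135089889, plus strand: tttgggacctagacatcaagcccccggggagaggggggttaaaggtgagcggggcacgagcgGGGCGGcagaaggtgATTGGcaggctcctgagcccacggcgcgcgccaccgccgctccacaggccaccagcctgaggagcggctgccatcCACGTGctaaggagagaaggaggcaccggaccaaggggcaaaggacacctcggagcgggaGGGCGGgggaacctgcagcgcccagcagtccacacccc
Mlxipl, downstream start, chr5:135106641-135106890, plus strand: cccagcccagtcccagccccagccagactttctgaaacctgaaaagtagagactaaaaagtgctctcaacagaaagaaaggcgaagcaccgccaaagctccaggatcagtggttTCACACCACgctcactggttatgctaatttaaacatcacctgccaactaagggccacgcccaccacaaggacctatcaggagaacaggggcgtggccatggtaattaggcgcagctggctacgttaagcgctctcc
Elovl6, chr3:129532136-129532354, plus strand: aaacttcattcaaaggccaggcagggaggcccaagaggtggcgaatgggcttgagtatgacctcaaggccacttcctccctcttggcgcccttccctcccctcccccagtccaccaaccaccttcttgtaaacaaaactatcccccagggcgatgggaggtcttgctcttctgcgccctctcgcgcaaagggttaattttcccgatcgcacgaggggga
Pnpla3, chr15:84167566-84167815, plus strand: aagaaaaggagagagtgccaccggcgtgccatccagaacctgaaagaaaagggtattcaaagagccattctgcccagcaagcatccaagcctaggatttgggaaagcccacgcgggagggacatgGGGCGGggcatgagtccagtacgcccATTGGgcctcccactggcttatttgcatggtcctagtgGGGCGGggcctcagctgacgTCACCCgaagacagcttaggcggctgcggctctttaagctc

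The core sequence TCACCC occurred 128 bases before the Fasn start, 15 bases before the Srebf1 start shown and 41 bases before the Pnpla3 start, counted to the left end of the match. It was present in 13.83% of 32851 RefSeq windows of 250 bases. The windows of both Mlxipl starts, the other Srebf1 starts, Elovl6, Acaca, Acacb, Acly and Thrsp did not hold it. Of the 3 Srebf1 starts, only the one with this match is shown. The windows of Fasn, Pnpla3 and the Srebf1 start shown also held CCAAT, the box bound by the SREBP partner NF-Y. CCAAT occurred in 33.85% of windows, and also in those of Acacb and Thrsp, which lack the core. CACGTG, the palindromic E-box, lay 98 bases before the upstream Mlxipl start and was found in 6.021% of windows. The downstream Mlxipl start had TCACNCCAC at 136 bases, a longer form found in 1.053% of windows. Elovl6 had none of the 5 in its window of 250 bases, of which 219 are shown. GGGCGG, the GC box found in 32.74% of windows, lay before the starts of Pnpla3, Srebf1 and, upstream, Mlxipl. These are matches of letters and not shown to be binding sites. Srebf1 and Mlxipl each make isoforms from separate starts, SREBP-1a and SREBP-1c or ChREBP alpha and beta, which the gene counts do not separate.

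Across the 10 members none passed an adjusted p under 0.05 (edgeR quasi-likelihood test, 0 higher and 0 lower), against a background of 346 of 13699 genes tested, or 2.53% (1.33% higher and 1.20% lower). At an unadjusted p under 0.05 there were 5 members, 4 with higher and 1 with lower fitted levels in DDI2-KO, where 23.5% of all genes tested passed. The other tool for counts, DESeq2, called 4 of the 10, Acacb, Elovl6, Mlxipl and Pnpla3, where it called 7.10% of genes, and limma-voom, the kind of test used in the study, called 0. For 6 members the 2 WT and the 2 DDI2-KO values did not overlap, 5 above WT and 1 below, and this holds for 55.7% of all genes tested, 28.0% above and 27.7% below. The median log2 fold change of the members was 0.74, beside -0.01 over all genes tested, and 8 of 10 lay above 0, as did 48.7% of genes.

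**Figure D1:**
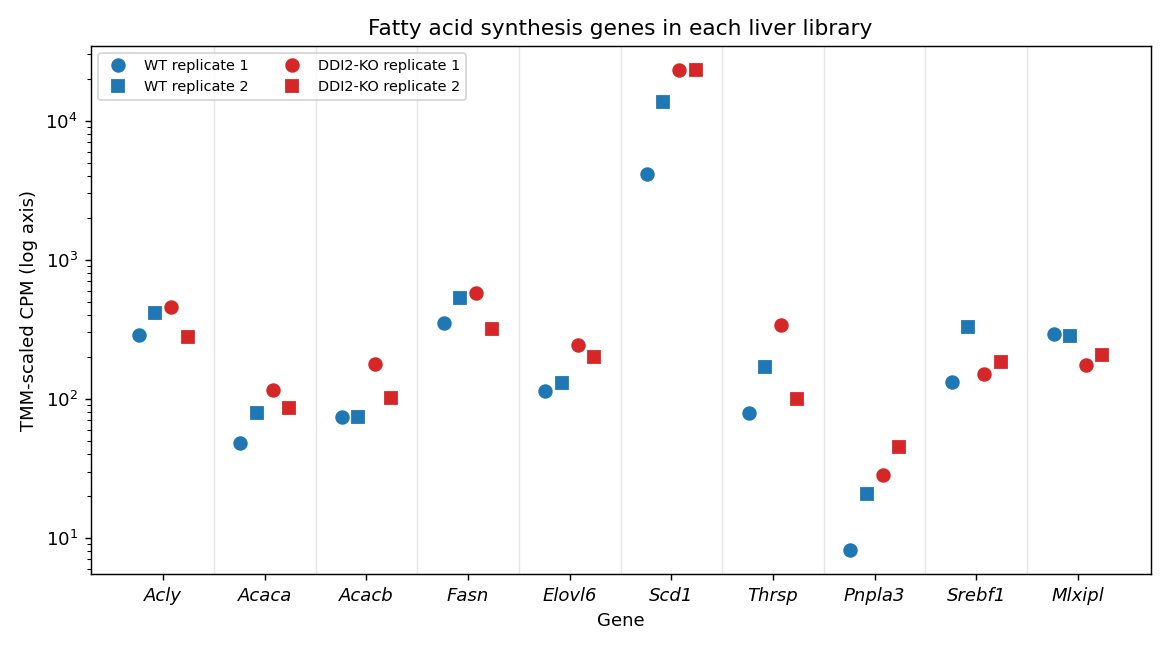
CPM of each gene (log axis, scaled with TMM factors) in the 2 WT livers (blue) and the 2 DDI2-KO livers (red), with circles for replicate 1 and squares for replicate 2. The red points lie above both blue points for Acaca, Acacb, Elovl6, Scd1 and Pnpla3 and below both for Mlxipl, and the colours are mixed for Acly, Fasn, Thrsp and Srebf1.

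Acly (ENSMUSG00000020917, chr11:100476353-100528000, minus strand), the source of cytosolic acetyl-CoA, was measured at 287 and 413 CPM in the WT replicates and at 454 and 278 CPM in the DDI2-KO replicates. The group means were 350.0 ± 89.5 and 366 ± 124 CPM (SD, n = 2 each), and the log2 fold change was 0.07 with a standard error of 0.28 (95% interval -0.58 to 0.71, adjusted p = 0.915). The lowest and the highest value both came from DDI2-KO livers, so that the groups overlapped completely.

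Of the carboxylases, Acaca (ENSMUSG00000020532, chr11:84129672-84401651, plus strand) makes the cytosolic malonyl-CoA that is used for synthesis. Its level was 48.1 and 79.6 CPM in WT and 115 and 85.6 CPM in DDI2-KO, with means of 63.8 ± 22.3 and 100.5 ± 20.99 CPM. Both DDI2-KO values were above both WT values, but the nearest of them were only a few CPM apart, and the log2 fold change of 0.65 ± 0.27 (SE) did not pass (adjusted p = 0.195). Leaving out a library moved it to between 0.34, without WT replicate 1, and 1.06, without WT replicate 2, and it passed in neither case. Its counts are uncertain in another way, because 52.6% of the 50-base stretches of its longest transcript also occur in the processed pseudogene Gm5182, and reads from such stretches may be set aside as not unique.

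Acacb (ENSMUSG00000042010, chr5:114146535-114250761, plus strand) makes the malonyl-CoA at the mitochondrial surface that restrains fatty acid oxidation. The WT livers were nearly equal, at 74.5 and 74.2 CPM, whereas the DDI2-KO livers stood at 178 and 102 CPM. The ratio of means was 1.88, with a log2 fold change of 0.91 ± 0.26 (SE, 95% interval 0.31 to 1.51, edgeR adjusted p = 0.0937). Both DDI2-KO livers were above WT, and the gap of 1.74-fold between them was nearly as large as the difference between the groups. Without DDI2-KO replicate 2 the log2 fold change was 1.27, and without DDI2-KO replicate 1 it was 0.46. Its adjusted p ranged from 0.00536 to 0.269 over all alternatives.

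Fasn (ENSMUSG00000025153, chr11:120805846-120824547, minus strand) encodes the synthase itself. It had 353 and 533 CPM in WT and 578 and 320.3 CPM in DDI2-KO, or means of 443 ± 128 and 449 ± 182 CPM. With a log2 fold change of 0.02 ± 0.32 (SE, adjusted p = 0.977) the fitted level was almost the same in both groups, but the 95% interval of -0.74 to 0.78 leaves room for a sizeable difference either way. As for Acly, DDI2-KO replicate 1 was the highest of the 4 livers and DDI2-KO replicate 2 the lowest, and leaving out each library in turn moved the log2 fold change from -0.46 to 0.39.

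Elovl6 (ENSMUSG00000041220, chr3:129532355-129638495, plus strand), which lengthens palmitate to stearate, had the smallest unadjusted p of the 10 genes. Its values were 114 and 129.9 CPM in WT and 243 and 200.3 CPM in DDI2-KO. The means of 122 ± 11.4 and 222 ± 30.1 CPM differed by a factor of 1.82, a log2 fold change of 0.86 ± 0.18 (SE, 95% interval 0.44 to 1.28, edgeR adjusted p = 0.0516). The groups were well apart, with gaps of 1.14-fold within WT and 1.21-fold within DDI2-KO. Over the alternatives that keep all 4 libraries, the adjusted p lay on either side of the threshold. It went from 0.00130 with DESeq2 to 0.0653 with edgeR without robust estimation. Fits with 1 library left out reached above this range. With 1 library left out the log2 fold change was between 0.72 and 1.00.

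Scd1 (ENSMUSG00000037071, chr19:44394455-44407879, minus strand), the delta-9 desaturase that makes oleate and palmitoleate, was the most abundant member by far. It had 138753 and 424269 reads in WT and 599919 and 529951 reads in DDI2-KO, which are 4127 and 13732 CPM and 23177 and 23061 CPM. The means were 8929 ± 6792 and 23119 ± 82.4 CPM, a ratio of 2.59. The DDI2-KO livers were nearly equal and both above WT, while the WT livers differed 3.33-fold, a gap between the WT libraries larger than for 99.3% of genes tested. With that spread the log2 fold change was 1.37 ± 0.61 (SE, 95% interval -0.30 to 3.05, adjusted p = 0.277). The size of the difference depended on the WT library used. Without WT replicate 2 the log2 fold change was 2.49, and without WT replicate 1 it was 0.75. With 1 WT library left, the spread within a group comes only from the nearly equal DDI2-KO livers, so such a fit cannot decide the call. Over the alternatives that keep all 4 libraries the adjusted p of Scd1 was between 0.111 and 0.595. Part of the sequence, 4.66% of 50-base stretches, is shared with Scd2, Scd3 and Scd4.

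Thrsp (ENSMUSG00000035686, chr7:97412938-97417730, minus strand), also called Spot 14, had the widest gap within a group of the 10 genes. It was at 79.3 and 169 CPM in WT and at 341 and 99.9 CPM in DDI2-KO, so that the replicates differed 2.13-fold in WT and 3.41-fold in DDI2-KO. The groups overlapped, and the log2 fold change of 0.83 ± 0.77 (SE, adjusted p = 0.595) turned to -0.31 without DDI2-KO replicate 1.

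Pnpla3 (ENSMUSG00000041653, chr15:84167837-84187236, plus strand) was the least abundant in CPM. The 4 libraries had 274, 636, 735 and 1043 reads, or 8.15 and 20.6 CPM in WT and 28.4 and 45.4 CPM in DDI2-KO. Both DDI2-KO values were above WT, with a ratio of means of 2.57 and a log2 fold change of 1.36 ± 0.51 (SE, 95% interval 0.02 to 2.70, edgeR adjusted p = 0.209). The gaps of 2.53-fold within WT and 1.60-fold within DDI2-KO were wide, and without WT replicate 2 the log2 fold change was 2.18. Its adjusted p over all alternatives went from 0.000625 to 0.603. Exons of Gm49513 on the same strand cover 6.78% of its exons.

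Among the regulators, Srebf1 (ENSMUSG00000020538, chr11:60199089-60222581, minus strand) was at 133 and 330.0 CPM in WT and at 151 and 184 CPM in DDI2-KO. Both DDI2-KO values lay between the WT values. The log2 fold change of -0.47 ± 0.42 (SE, 95% interval -1.52 to 0.58, adjusted p = 0.558) rested on WT replicate 2, and without that library it was 0.33. WT replicate 2 was also the WT liver with the higher level of its targets Fasn, Scd1 and Pnpla3, whereas in DDI2-KO the liver with more Srebf1, replicate 2, had less Fasn, more Pnpla3 and nearly the same Scd1.

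Mlxipl (ENSMUSG00000005373, chr5:135089890-135138382, plus strand) was the one member with both DDI2-KO livers below WT. It had 290.5 and 283 CPM in WT and 174 and 206 CPM in DDI2-KO, or means of 286 ± 5.62 and 190.0 ± 22.1 CPM and a ratio of 0.663. Its replicates were close in both groups, and the log2 fold change of -0.59 ± 0.18 (SE, 95% interval -0.996 to -0.19) had an adjusted p of 0.1004 with edgeR and 0.0462 with DESeq2, and up to 0.349 without 1 library. Leaving out each library in turn kept it between -0.71 and -0.47.

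**Figure D2:**
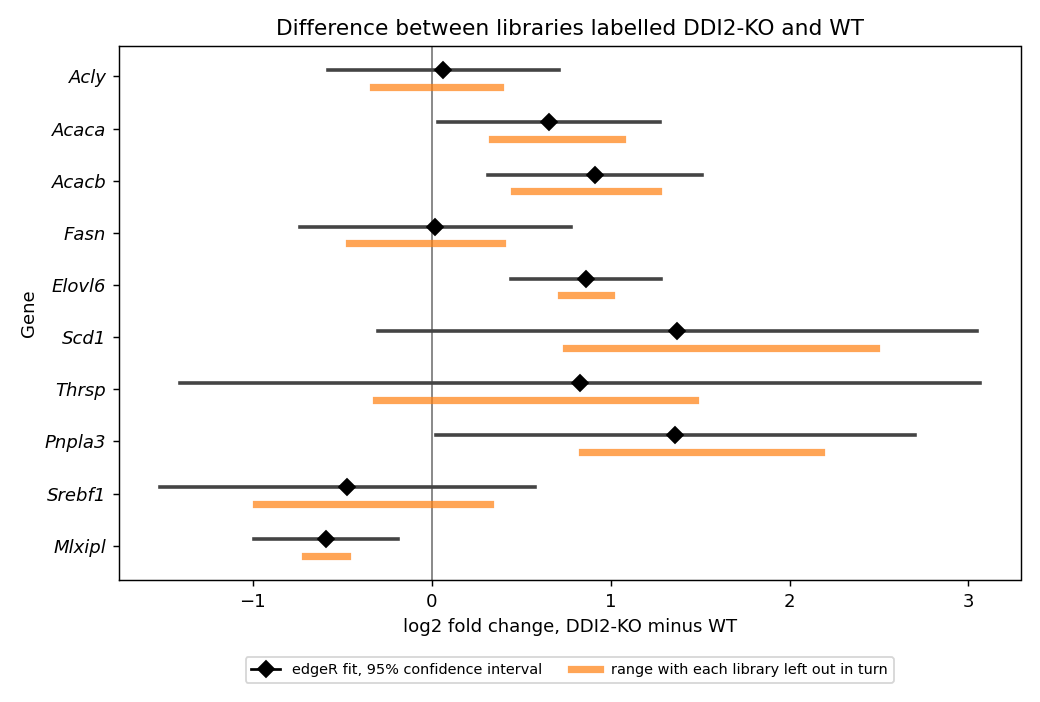
Log2 fold change of each gene, DDI2-KO minus WT, from edgeR (diamonds, with bars for the 95% confidence interval), and below each the range when each of the 4 libraries is left out in turn (orange). The orange range crosses 0 for Acly, Fasn, Thrsp and Srebf1, is narrow for Elovl6 (0.72 to 1.00) and Mlxipl (-0.71 to -0.47) and is wide for Scd1 (0.75 to 2.49).

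Compared per length, in TPM, which divide reads by exon length and scale the sum to a fixed total, Scd1 stood far above the other members, with 4239 ± 3211 TPM in WT and 11940 ± 18.4 TPM in DDI2-KO. Acly, Thrsp, Mlxipl, Srebf1 and Fasn followed in WT with means from 154 down to 94.1 TPM, neighbours that did not differ beyond the spread of the WT livers. Elovl6 came next, at 44.0 ± 3.94 TPM in WT and 87.0 ± 11.4 TPM in DDI2-KO. Pnpla3 and Acacb, at 21.6 ± 13.1 and 18.0 ± 0.130 TPM in WT, could not be ordered, and Acaca was lowest, at 8.69 ± 3.003 TPM. In DDI2-KO Acaca was again the lowest, at 14.9 ± 3.03 TPM, next to Acacb at 36.6 ± 13.8 TPM. The place of Acaca is uncertain in both groups, because its union of exons is 17074 bases, against 9513 in its longest transcript. Reads set aside where it matches Gm5182 would also lower its TPM.

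Between livers of one genotype the median gap of the members was wider than that of all genes, although not for every member. Between the WT livers the median gap of the members was 0.66 on the log2 scale, beside 0.19 over all genes tested, and between the DDI2-KO livers it was 0.55 beside 0.27. Mlxipl had gaps wider than those of only 11.9% of genes in WT and 45.9% in DDI2-KO, Acacb had nearly equal WT livers and Scd1 nearly equal DDI2-KO livers. In WT, 8 of 10 were higher in replicate 2, all except Acacb and Mlxipl, where 50.2% of all genes were. In DDI2-KO, 7 of 10 were higher in replicate 1, all except Pnpla3, Srebf1 and Mlxipl, where 49.98% of genes were. For 6 of the 10, Acly, Acaca, Fasn, Scd1, Thrsp and Srebf1, a gap within a group exceeded the fold change between the groups. The share of all genes tested with such a gap was not counted, so whether this is particular to the members was not tested.

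**Figure D3:**
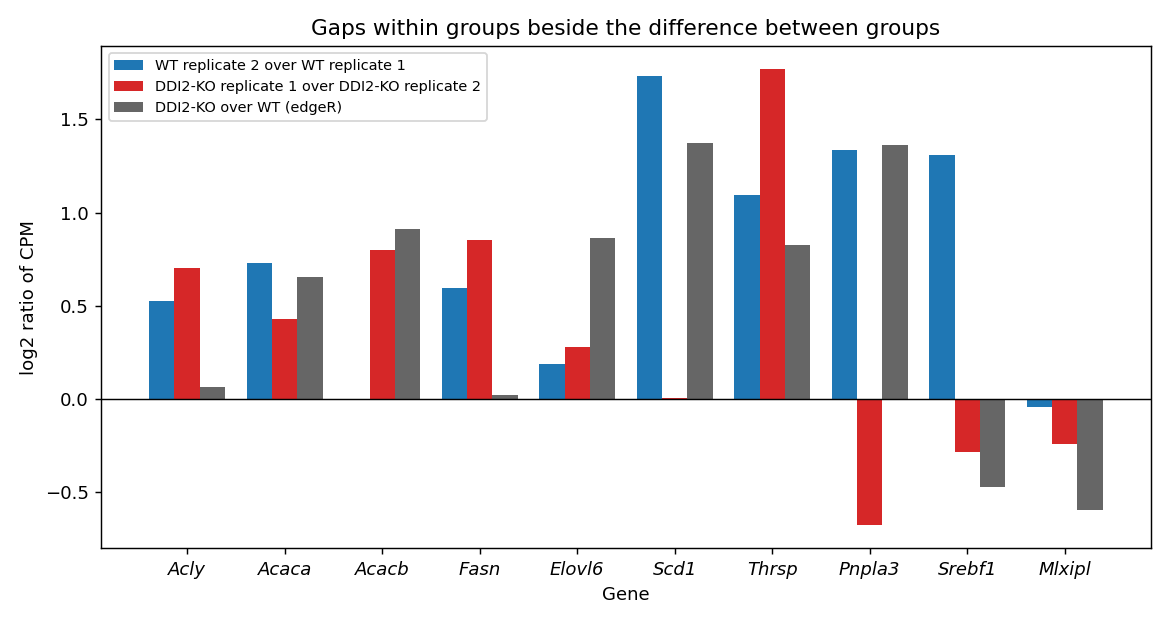
Log2 ratio of CPM for each gene between the WT livers (blue, replicate 2 over replicate 1), between the DDI2-KO livers (red, replicate 1 over replicate 2) and between the genotypes (grey, edgeR). The blue bar of Scd1 and the red bar of Thrsp are taller than their grey bars, while the grey bars of Elovl6 and Mlxipl are the largest of their 3.

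The WT livers also differed in some clock genes, whose levels follow the time of day. Others were close, such as Hlf (47.1 and 48.1 CPM in WT) and Cry2 (33.2 and 35.8 CPM in WT). Arntl was at 15.7 and 4.95 CPM in WT replicates 1 and 2 and at 15.6 and 23.9 CPM in DDI2-KO, and Dbp, which peaks at the opposite phase, was at 39.9 and 91.6 CPM and at 29.2 and 10.4 CPM. Of 15 clock genes, Nfil3 rose and Per1 and Nr1d2 fell in DDI2-KO at an adjusted p under 0.05, where 2.53% of all genes tested passed. For 8 of the 15 both DDI2-KO livers were below both WT livers, and for 2 both were above. Over all genes tested this held for 27.7% and 28.0%. The median log2 fold change of the 15 was -0.62. Between the DDI2-KO livers the gap of a gene went with its GC content (Spearman 0.48 over 13675 genes, and genes are not independent replicates). The transcripts of Fasn and Acacb are 57.9% and 56.7% GC, and both genes were higher in DDI2-KO replicate 1. Pnpla3, Srebf1 and Mlxipl, at 58.4%, 58.4% and 56.6% GC, were higher in DDI2-KO replicate 2. Elovl6, Scd1, Acaca, Thrsp and Acly, at 44.0%, 47.1%, 49.1%, 52.0% and 52.1% GC, were higher in DDI2-KO replicate 1, Scd1 by only 1.01-fold. With offsets for length and GC content the log2 fold change of Fasn was 0.33. Time of collection, feeding and base composition were not tested as causes of any difference between the livers.

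The genes around the pathway were taken as 8 lists with 73 genes, all tested. Of these, 5 rose in DDI2-KO at an adjusted p under 0.05 and 0 fell, 6.85% of the lists beside 2.53% of all genes, or 1.33% when only higher levels are counted. The lists were chosen with earlier results of these data known, so their share is not a test against all genes. The median log2 fold change over the 73 genes was 0.15.

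Of the 7 genes that supply acetyl-CoA and NADPH, 2 rose. These were the NADPH producers Me1, malic enzyme, at 75.2 and 77.9 CPM in WT and 239 and 246 CPM in DDI2-KO, and G6pdx, the first enzyme of the pentose phosphate pathway, at 9.82 and 14.2 CPM and at 67.5 and 56.5 CPM. Pgd, the next NADPH producer of that pathway, had the lowest log2 fold change of the list, at -0.02. The list had a median of 0.45, and 6 of 7 genes lay above 0.

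None of the 11 other elongases, desaturases and enzymes of the elongation cycle passed, and their median was 0.08. Elovl5, an elongase of polyunsaturated fatty acids, had the highest log2 fold change, 0.51 (adjusted p = 0.130). Fads2, the delta-6 desaturase, had the lowest, -0.84, from 630.2 and 629.5 CPM in WT to 396 and 308 CPM in DDI2-KO (edgeR, adjusted p = 0.0601), so that both DDI2-KO livers were below WT, where both were above it for Elovl6.

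Of 10 genes of triglyceride assembly and droplets, Pnpla5, a droplet lipase of the Pnpla3 family, rose from 8 and 13 reads to 54 and 52 reads, a log2 fold change of 2.72 ± 0.42 (SE, edgeR adjusted p = 0.0295), and did not pass without WT replicate 1. Mogat1, a monoacylglycerol acyltransferase, had the highest value of the list, 2.86, on 5 and 2 reads in WT and 27 and 13 reads in DDI2-KO, and did not pass (adjusted p = 0.0596). Lpin1, a phosphatidate phosphatase, had the lowest, -0.21, and the median was 0.29.

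None of the 12 genes that process SREBP-1c or control it through LXR passed, with a median of 0.05. The range ran from -0.39 for Srebf2, the SREBP of cholesterol synthesis, to 0.86 for Insig2, which retains SREBPs in the endoplasmic reticulum (adjusted p = 0.428 and 0.252). Insig2 was at 157 and 66.3 CPM in WT and at 193 and 212 CPM in DDI2-KO, another gene for which the WT livers were far apart, here with replicate 2 as the lower, and it passed the threshold without WT replicate 1.

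The 9 genes that hold the ChREBP partner and targets all had log2 fold changes above 0, from 0.15 for the partner Mlx to 1.81, with a median of 0.53, and for 7 of them both DDI2-KO livers were above WT, where 28.0% of all genes tested were. The one that passed was G6pc, the catalytic subunit of glucose-6-phosphatase, at 119 and 71.5 CPM in WT and 259 and 409 CPM in DDI2-KO (log2 fold change 1.81 ± 0.31, SE, edgeR adjusted p = 0.0429). Mlxipl itself was lower in both DDI2-KO livers. The call of G6pc was lost without either DDI2-KO library. G6pc is also a gene of gluconeogenesis and is under the control of fasting hormones.

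Among 8 genes that control acetyl-CoA carboxylase or use malonyl-CoA none passed, and the range ran from -0.71 for Prkab2 to 0.35 for Prkag1, both subunits of the kinase AMPK that inhibits the carboxylases. Of 11 genes of the insulin and feeding response 1 passed, Pdk4, the kinase that shuts pyruvate dehydrogenase in fasting, from 6.78 and 6.93 CPM to 35.5 and 32.6 CPM (log2 fold change 2.31 ± 0.17, SE, edgeR adjusted p = 0.00911). The lowest of that list was Ppargc1a, a coactivator of gluconeogenesis, at -0.86 (adjusted p = 0.0650), and the median was -0.05. The 5 genes of the thyroid hormone response, which acts on Thrsp, ranged from -0.28 for Ncor1 to 0.36 for Thra, and none passed.

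**Figure D4:**
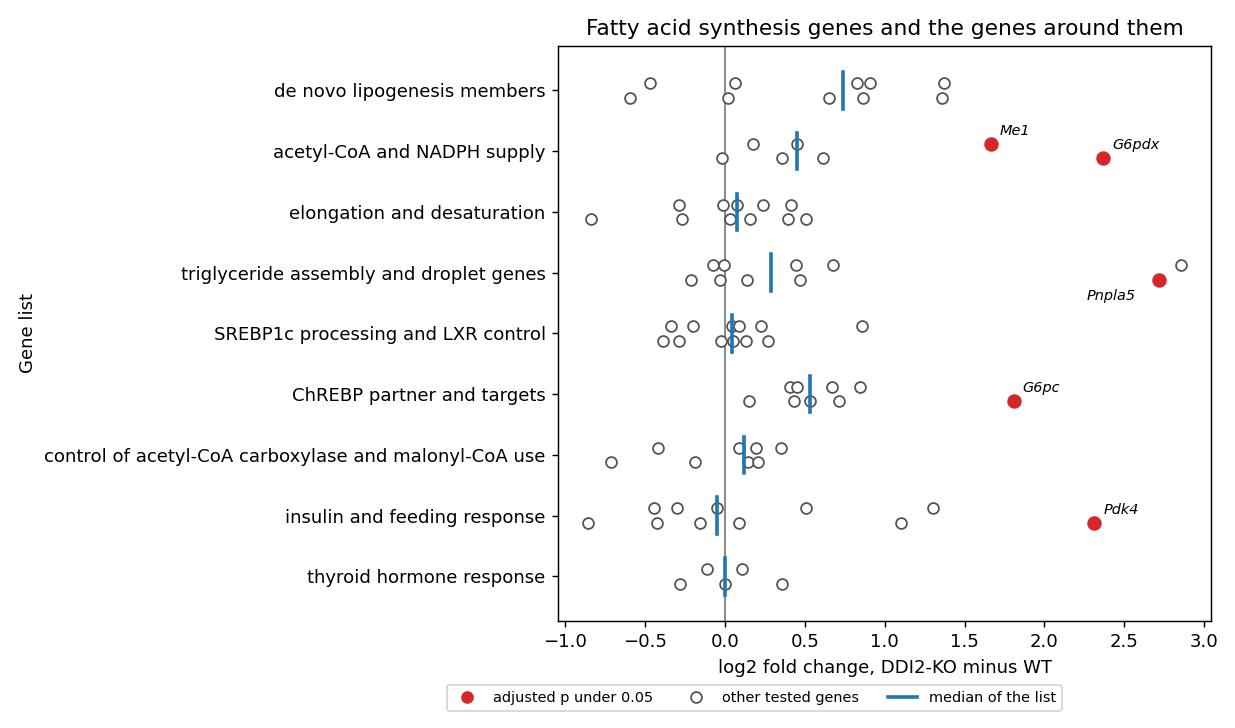
Log2 fold change (DDI2-KO minus WT, edgeR) of every tested gene in the fatty acid synthesis set and in the 8 lists around it, with filled red points for an adjusted p under 0.05 and a blue line at the median of each list. The red points are Me1, G6pdx, Pnpla5, G6pc and Pdk4, all above 0, and the 10 fatty acid synthesis genes spread from -0.59 to 1.37 with none filled.

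In whole liver, fewer cells of a type and less RNA per cell cannot be told apart. Among 31 markers of other cell types, Stab2 of sinusoidal endothelium was lower in DDI2-KO (log2 fold change -1.10, edgeR adjusted p = 0.0288) and Pparg, listed for adipocytes and also present in hepatocytes, was higher (1.03, adjusted p = 0.0404). The adipocyte list summed to 20.5 and 24.1 CPM in WT and 30.3 and 31.5 CPM in DDI2-KO, nearly all from Pparg, Fabp4 and Cidec, of which Fabp4 was lower in both DDI2-KO livers. Bile duct markers, led by Krt19, had 0 of 5 past the threshold and summed to 51.7 to 55.6 CPM in WT and 70.1 to 71.2 CPM in DDI2-KO. Kupffer cell markers, led by Clec4f, had 0 of 6 and summed to 566 to 658 CPM and 717 to 834 CPM. Endothelial markers, led by Stab1, summed to 349 to 387 CPM and 352 to 367 CPM. Stellate cell markers, led by Lrat, had 0 of 6 past the threshold, with 6 log2 fold changes below 0, and summed to 217 to 265 CPM and 199 to 206 CPM. The part of other cells, RNA quality or depth in the levels of the 10 genes was not tested.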

How the data were processed

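Liver RNA of 4 untreated mice, 2 WT and 2 DDI2-KO by the labels, was sequenced with the TruSeq Stranded mRNA protocol. The authors deposited raw counts of reads per Ensembl gene for each library, without normalization. The submitters' processing notes name cutadapt 1.8, STAR 2.5.2b, HTSeq 0.6.1 and the build GRCm38, and the annotation release is not given in the sources used here. The lines that name no gene stayed out of library sizes and tests. They held 3 kinds of reads, given here as percent of reads on genes. Reads with no feature were 4.70% to 5.11% in WT and 2.53% to 3.65% in DDI2-KO. Ambiguous reads were 2.50% to 2.54% and 3.49% to 3.66%. Reads that did not align uniquely were 51.8% to 65.8% and 47.3% to 49.2%.

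Symbols, coordinates and exon lengths came from GENCODE for GRCm38, which holds 48349 of the 48709 identifiers, and all 141 listed symbols were found. Counts were tested with edgeR 4.0.16 in R 4.3.3 (TMM, filterByExpr, robust glmQLFit, glmQLFTest, no replicate block), adjusted by Benjamini-Hochberg over 13699 genes. CPM of single genes are TMM-scaled, whereas the floor of 3 counts and sums over marker lists are per library total. Standard errors are the log2 fold change divided by the root of the F statistic. Intervals are 95% intervals of the fit. TPM use the union of annotated exons, and gaps over all genes use log2(CPM + 0.1).

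Members and lists were chosen with earlier results of these data known. The text names all 10 members, in each pathway list the genes past the threshold and the highest and lowest log2 fold change, the first marker of each list and Ddi2. Stab2, Pparg, Fabp4, Cidec, the other adipocyte markers, Malat1, Neat1 and the clock genes were named after their values were seen. The alternatives used limma 3.58.1 and DESeq2 1.42.0, RLE, upper-quartile or no scaling factors, other filters, thinned counts, offsets for length and GC content, a replicate block, an adjusted p of 0.1 and leaving out each library. The scripts were tested on simulated data. P-values rest on 2 libraries per group, with the spread of each gene drawn toward that of all genes by the fit. The number of libraries is the main limit on precision at this depth.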

Additional observations from a re-analysis of the deposited data

Results flagged for a closer look

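Reads that HTSeq set aside as ambiguous, because they overlap more than one gene, are outside the gene counts and stood higher in both DDI2-KO libraries than in both WT libraries. Relative to counted reads they came to 2.50% and 2.54% in WT and to 3.49% and 3.66% in DDI2-KO, a DDI2-KO mean of 3.57%. Reads with no feature and reads that did not align uniquely stood lower in both DDI2-KO libraries than in both WT libraries. The part of any of these reads in the levels of the fatty acid synthesis genes was not tested.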

How the results depend on the processing

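Of the recomputed log2 fold changes of the 10 genes, 133 kept their direction and their side of the threshold, 17 passed it and 10 changed sign. Without robust estimation, with limma-voom, limma-trend, RLE or upper-quartile factors or a mean of at least 1 CPM, 0 members passed. Elovl6 passed with library totals (1 member, log2 fold change 0.91) and with thinned counts (1 member, 0.87). DESeq2 called 4 members, Acacb (0.92), Elovl6 (0.87), Mlxipl (-0.58) and Pnpla3 (1.37). Without the filter on low counts 2 passed, Acacb (0.92) and Elovl6 (0.87), as with the offsets for length and GC content (1.14 and 0.96), and at an adjusted p under 0.1 there were 2. The log2 fold change of Fasn was -0.033 with upper-quartile factors, -0.0125 with limma-voom and -0.0113 with limma-trend. Leaving out each library in turn gave 0 to 2 members and log2 fold changes of -0.46 to 0.39 for Fasn, -0.33 to 0.38 for Acly, 0.34 to 1.06 for Acaca, 0.46 to 1.27 for Acacb, 0.75 to 2.49 for Scd1, 0.72 to 1.00 for Elovl6, -0.98 to 0.33 for Srebf1, -0.31 to 1.47 for Thrsp and 0.84 to 2.18 for Pnpla3. Of all genes tested, 346 passed, and the count was 903 with DESeq2, 136 with limma-voom, 139 with limma-trend, 1544 without the filter, 152 without robust estimation, 771 with the offsets, 1281 at an adjusted p under 0.1 and 153 to 631 with 1 library left out, 153 without WT replicate 1, 203 without WT replicate 2 and 631 without DDI2-KO replicate 2. Of the 73 pathway genes 5 passed, and 9 did with DESeq2, 12 without the filter, 8 with the offsets, 11 at an adjusted p under 0.1 and 4 to 7 with 1 library left out, with G6pc lost without either DDI2-KO library and with the offsets and Pnpla5 lost and Insig2 gained without WT replicate 1. The split of calls over all genes was 182 higher and 164 lower, 126 and 191 with upper-quartile factors, and 230 and 148 with library totals. The number of members whose groups did not overlap was 6 also with library totals, an alternative chosen after seeing the data. The cause of these changes was not tested.

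The labels number the libraries 1 and 2 in both groups but do not say that a number pairs them, and deviations of same-numbered libraries from their group means correlated at 0.06, so the samples may share only a number. With the replicate block 1108 genes, 11 pathway genes and 3 members passed, the members being Acacb (log2 fold change 0.86), Elovl6 (0.86) and Pnpla3 (1.46), and Fasn was at -0.0111. The block leaves less of the 4 libraries to estimate the spread of each gene. Its calls therefore rest more on the spread of all genes than those of the main fit.

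With 2 livers a group, and gaps within a group of up to 3.41-fold for a member, 6 of the 10 members had a gap between livers of one genotype that exceeded their fold change. The same share over all genes tested was not counted. When 1 library is left out, the lone one is assumed to vary like the other group.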
